A study of Arabidopsis thaliana with 12 samples.

Results

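RALFL18, RALFL22, RALFL24 and RALFL32 are genes of the RALF family in Arabidopsis thaliana, which encodes small peptides that cells secrete into their walls. The genes were chosen by symbol, after earlier results on these arrays were known, and each was read by 1 probe set among 22746 non-control probe sets. They are 4 of the 11 RALF genes that have a named probe set here, out of 34 in the gene table. RALFL18, RALFL24 and RALFL32 matched that table by gene identifier. RALFL22 matched it by symbol only, because the identifier in the probe annotation was not in the table.

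RALF stands for rapid alkalinization factor, after the rise in pH that the first peptide caused in the medium of cultured cells. A RALF is made as a longer precursor, and several precursors are cut by the site-1 protease S1P, a subtilase. The released peptide is recognised at the cell surface by receptor kinases of the group of FER (FERONIA) and THE1 (THESEUS1), with small lipid-anchored partner proteins, and it also binds leucine-rich repeat extensins in the wall. These signals are known from root growth, pollen tubes and immunity, where they tie wall integrity to growth.

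The series profiled early embryos of accession Col-0 on Affymetrix ATH1 arrays, with 12 arrays in 4 groups of 3. There were 3 nuclear groups, all from ovules fixed with 0.1% paraformaldehyde at the stage of 2 to 16 embryo cells: the proembryo, which gives rise to most of the plant, the suspensor, the file of cells that anchors it, and both together as the whole embryo. The nuclei were sorted by flow cytometry with marker lines, whose promoters the labels do not name. The group of whole-embryo cells holds cellular RNA of intact embryos of 8 to 32 cells, squeezed out of unfixed ovules and washed. All plants grew in days of 16 h light and 8 h dark. Stage, fixation and RNA preparation differ together between cells and nuclei and cannot be told apart. The replicates are called biological without saying what was separate, so SDs describe the spread between these 3 arrays per group. The SE of a difference comes from a fit that pools the spread of all groups in it, including groups outside the comparison. It is also drawn towards the spread of probe sets of like intensity.

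Levels are given as intensity and as log2(intensity + 16), a scale that understates changes of dim genes. Different probe sets bind RNA with different strength, so levels are compared between samples and not between genes. Arrays of a group correlated at 0.843 to 0.933, and 0 pairs of arrays held identical values. None of the listed lineage markers WOX8, WOX9, ARF13, IAA10, WOX2, ATML1, DRN, PDF1 and STM has a named probe set here, so the lineage labels were not checked against them. BAN, a tannin synthesis gene of the seed coat and the 1 measured gene of 7 seed coat markers, read 4435 to 16697 intensity units over the 12 arrays and lay above 98.8% or more of the probe sets of each array. Of 6 endosperm markers, AGL62 (log2 level 5.37 to 7.14) and AGL80 (5.37 to 7.56) were measured.

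RALFL18 was highest in suspensor nuclei and lowest in whole-embryo cells. Its intensity on the suspensor arrays was 1992, 2142 and 1960, a log2 level of 10.97, 11.08 and 10.95 (mean 11.00, SD 0.0678, n = 3). On the proembryo arrays it was 426, 1699 and 426, or 8.79, 10.74 and 8.79 (mean 9.44, SD 1.13, n = 3). On the arrays of whole-embryo nuclei it was 1221, 1115 and 1441, or 10.27, 10.14 and 10.51 (mean 10.31, SD 0.185, n = 3). The suspensor arrays lay above all other arrays, proembryo replicate 2 reached into the range above whole-embryo nuclei, and the other proembryo arrays lay well below both. In whole-embryo cells the intensity was 209, 342 and 227, or 7.81, 8.48 and 7.92 (mean 8.07, SD 0.36, n = 3), below every nuclear array. In order of level the groups ran from suspensor nuclei through whole-embryo nuclei and proembryo nuclei to cells, and only the middle neighbours, whole-embryo and proembryo nuclei, overlapped.

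RALFL22, which is known to act in the wall of root hairs, had another order, with whole-embryo nuclei highest. Its intensity there was 700, 646 and 599, a log2 level of 9.48, 9.37 and 9.27 (mean 9.37, SD 0.109, n = 3). Proembryo nuclei gave 506, 600 and 342, or 9.03, 9.27 and 8.48 (mean 8.93, SD 0.402, n = 3). Suspensor nuclei gave 198, 357 and 393, or 7.74, 8.54 and 8.68 (mean 8.32, SD 0.504, n = 3). Suspensor replicate 1 stood lowest among the nuclei, and each neighbour in the order of levels overlapped the next. In whole-embryo cells RALFL22 read 239, 284 and 198, or 7.99, 8.23 and 7.74 (mean 7.99, SD 0.242, n = 3), a range that overlapped the suspensor arrays. The mean of whole-embryo nuclei lay above both lineages for RALFL22, not between them.

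RALFL24 had close means in proembryo and whole-embryo nuclei and a lower one in the suspensor. It read 848, 512 and 704 in proembryo nuclei, a log2 level of 9.76, 9.04 and 9.49 (mean 9.43, SD 0.359, n = 3). In whole-embryo nuclei it read 812, 630 and 703, or 9.69, 9.33 and 9.49 (mean 9.51, SD 0.18, n = 3). In suspensor nuclei it read 413, 557 and 419, or 8.75, 9.16 and 8.77 (mean 8.89, SD 0.235, n = 3). The suspensor arrays lay below all arrays of whole-embryo nuclei, while suspensor replicate 2 lay above proembryo replicate 2. Whole-embryo cells read 230, 282 and 323, or 7.94, 8.22 and 8.41 (mean 8.19, SD 0.235, n = 3), below every nuclear array.

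RALFL32 did not separate the lineages. It read 290, 393 and 353 in proembryo nuclei, a log2 level of 8.26, 8.68 and 8.53 (mean 8.49, SD 0.214, n = 3). In whole-embryo nuclei it read 268, 249 and 387, or 8.15, 8.05 and 8.65 (mean 8.28, SD 0.325, n = 3). Suspensor nuclei gave 367, 123 and 465, or 8.58, 7.12 and 8.91 (mean 8.20, SD 0.951, n = 3). Suspensor replicate 2 stood far below the other suspensor arrays. Of these, replicate 1 lay within the range of the other nuclei and replicate 3, at 8.91, lay above it. In whole-embryo cells it read 135, 65 and 49.6, or 7.23, 6.34 and 6.04 (mean 6.54, SD 0.623, n = 3), and 2 of these 3 arrays had it below the median probe set. Cells and suspensor nuclei overlapped through suspensor replicate 2.

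**Figure D1:**
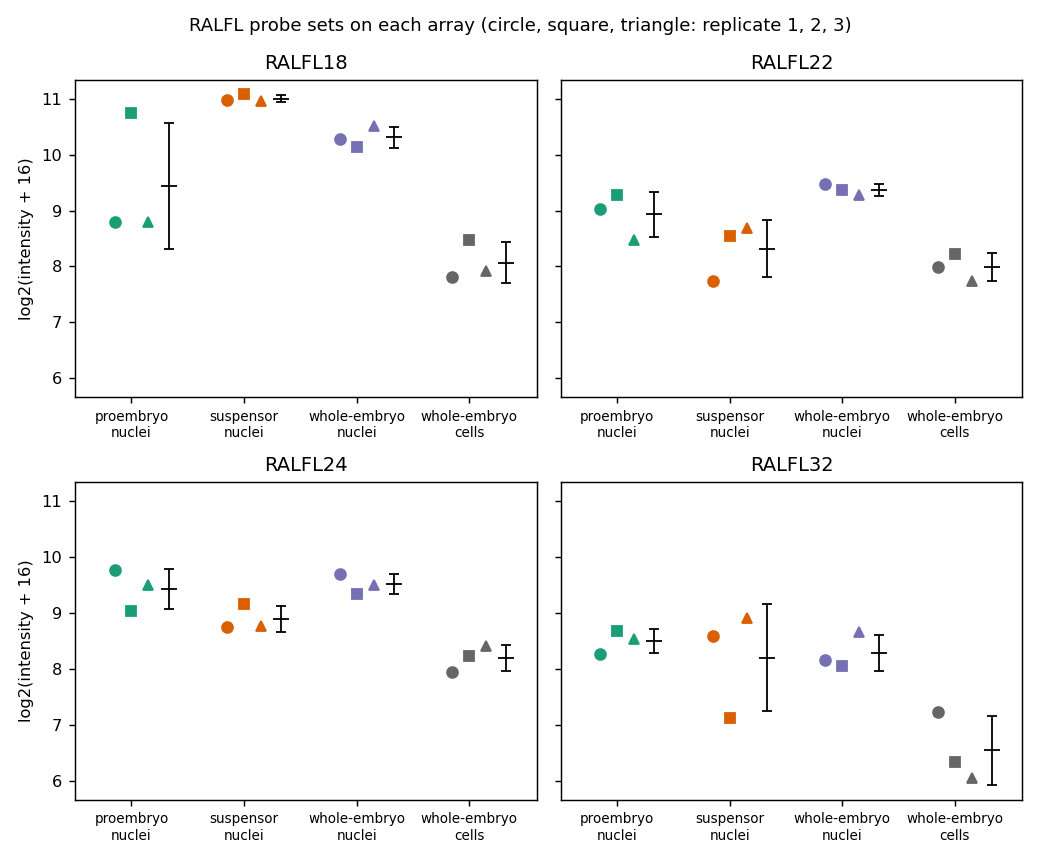
Log2(intensity + 16) of RALFL18, RALFL22, RALFL24 and RALFL32 on each of the 12 arrays (symbols) by group, with the group mean and SD (black, n = 3). RALFL18 sits at 10.95 to 11.08 in suspensor nuclei and at 7.81 to 8.48 in cells, with proembryo replicate 2 at 10.74 apart from the other proembryo arrays.

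The comparison of suspensor with proembryo nuclei asks which transcripts differ between the lineages. Since the genes were chosen with these values known, their differences are a description and carry no test. The same holds for every count of these genes past a threshold, in each comparison and over alternative settings. The suspensor level of RALFL18 exceeded the proembryo level 2.95-fold, a log2 difference of 1.56 (SE 0.382, n = 3 and 3), and 86 of 12787 probe sets had a larger difference. RALFL22 stood at -0.60 (SE 0.295), RALFL24 at -0.54 (SE 0.26) and RALFL32 at -0.28 (SE 0.374), so the 3 others leaned to the proembryo by less than 1 log2 unit. In a limma fit across all probe sets, 1 of the 4, RALFL18, passed an adjusted p of 0.05, against 2.03% of all probe sets and 0.696% in the same direction. It was also the 1 gene of the 4 whose arrays did not overlap between the groups, against 19.3% of all probe sets. Nothing is read from these counts, since this contrast was known when the genes were chosen. The median over the 4 was -0.41 and over all probe sets 0.01. In these bulk samples, fewer cells or nuclei that express a gene and less RNA per nucleus cannot be told apart.

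The RALFL18 difference was made smaller by proembryo replicate 2. It was 2.21 without that array and 1.23 without either of the other proembryo arrays. It was past the threshold in 3 of 15 alternative settings, namely without proembryo replicate 2, with a pseudocount of 64 and with the replicate number as a block. In all 15 it stayed positive, which groups that do not overlap would give in any case where an array is left out. Settings without the filter on dim probe sets or without the intensity trend, both described below, are not among the 15. Each proembryo array was also set against the mean of the other proembryo arrays. Of 76 probe sets called higher in suspensor than in whole-embryo nuclei, a contrast that does not hold the proembryo means, 28 stood above that mean on proembryo replicate 2, with a median of -0.21, where RALFL18 stood at 1.96. On proembryo replicate 1 it was 53 of the 76 (median 0.23) and on replicate 3 it was 36 (median -0.02), where RALFL18 stood at -0.98 on each. The fit that called the 76 holds the spread of the proembryo arrays, so it favours probe sets that vary little there. They therefore cannot show whether RALFL18 was unusual on any of these arrays. On proembryo replicate 2, RALFL22 stood at 0.51, RALFL24 at -0.58 and RALFL32 at 0.28.

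Of the array controls, the actin measure separated the lineages. The actin probe sets at the 3' end exceeded those at the 5' end by 3.25 to 3.75 log2 units in suspensor and by 4.31 to 4.53 in proembryo nuclei. The same measure for ubiquitin was 4.48, 5.51 and 5.34 on suspensor replicates 1, 2 and 3 and 4.48 to 4.55 in the proembryo, and for GAPDH it was 6.25 to 6.81 and 5.78 to 7.31, so both overlapped. The hybridisation controls, added in fixed amount, read 11.67, 13.16 and 14.11 log2 units on suspensor replicates 1, 2 and 3, and 11.92 to 12.93 on the proembryo arrays, which overlapped as well. Across that range of controls, RALFL18 stayed between 10.95 and 11.08 in the suspensor. RALFL22 was lowest, at 7.74, on the suspensor array with the lowest control level, and highest, at 8.68, on that with the highest. RALFL24 (8.75, 9.16 and 8.77 on suspensor replicates 1, 2 and 3) and RALFL32 (8.58, 7.12 and 8.91) did not follow the order of the controls. With the control level as a covariate the differences were 1.40 for RALFL18, -0.81 for RALFL22, -0.53 for RALFL24 and -0.36 for RALFL32. Neither the part of the control level nor that of the actin difference in these differences was tested. BAN stood at 0.58 (SE 0.245), AGL62 at 0.67 (SE 0.564) and AGL80 at 0.67 (SE 0.451) in suspensor minus proembryo nuclei, and their part in the RALFL differences was not tested.

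Set against each other on the same array, where a common scaling of the array cancels, RALFL18 and RALFL22 moved apart between the lineages. RALFL18 minus RALFL22 was 3.23, 2.53 and 2.27 log2 units on the suspensor arrays. It was -0.24, 1.48 and 0.30 on the proembryo arrays, 0.79, 0.77 and 1.24 in whole-embryo nuclei and -0.18, 0.26 and 0.18 in whole-embryo cells. The suspensor arrays lay above all 9 others, as they already did for RALFL18 alone. RALFL18 minus RALFL24 gave the same order, with 1.91 to 2.22 in the suspensor and at most 1.70, on proembryo replicate 2, elsewhere. RALFL18 minus RALFL32 did not separate the suspensor, whose lowest value, 2.04, lay within the range of the other groups. These values show unequal change between the groups, not which gene of a pair changed.

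**Figure D2:**
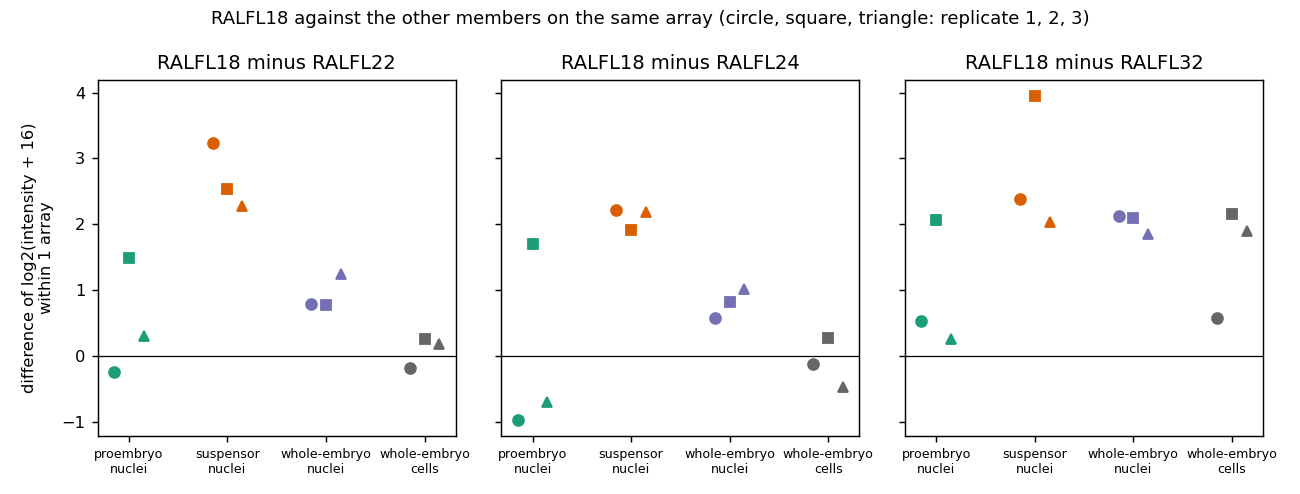
Difference of log2(intensity + 16) between RALFL18 and each other chosen gene on the same array (symbols), by group. The suspensor arrays lie at 2.27 to 3.23 against RALFL22 and at 1.91 to 2.22 against RALFL24, above the arrays of the other groups, but overlap them against RALFL32.

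Suspensor nuclei were also compared with whole-embryo nuclei, which mix both lineages and share the suspensor arrays with the comparison above. RALFL22 was the gene that differed most, at -1.05 log2 units (SE 0.295, n = 3 and 3), and RALFL24 stood at -0.62 (SE 0.26). RALFL18 stood at 0.69 (SE 0.382) and RALFL32 at -0.08 (SE 0.374). The SE of RALFL18 pools in the proembryo arrays (SD 1.13), which are not compared here. The SD of RALFL18 was 0.0678 in suspensor and 0.185 in whole-embryo nuclei. The arrays of RALFL18, RALFL22 and RALFL24 did not overlap between these groups, against 18.9% of all probe sets (9.16% higher and 9.74% lower in the suspensor). By limma 0 of the 4 passed the threshold, against 1.56% of all, with 2 at an unadjusted p under 0.05, against 14.3% of all. BAN, too, was higher on all suspensor arrays in this comparison (0.40, SE 0.245), while AGL62 stood at 0.95 (SE 0.564) and AGL80 at 0.12 (SE 0.451) with overlapping arrays. Their part was not tested. RALFL22 passed in 1 of 15 alternative settings, with the control level as a covariate (-1.17, SE 0.261). RALFL32 turned from -0.08 to 0.46 without suspensor replicate 2.

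In proembryo minus whole-embryo nuclei RALFL18 stood at -0.87 (SE 0.382), and at -1.52 without proembryo replicate 2. RALFL22 stood at -0.45 (SE 0.295), RALFL24 at -0.08 (SE 0.26) and RALFL32 at 0.20 (SE 0.374). By limma 0 of the 4 passed, as did 0 of all 12787 probe sets (0%), with 1 of the 4 at an unadjusted p under 0.05 against 3.14% of all. The groups overlapped for all 4, while 8.23% of all probe sets did not overlap.

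The comparison of whole-embryo cells with whole-embryo nuclei asks how cellular and nuclear RNA pools differ, together with the stage and preparation named above. All 4 genes were lower in cells. RALFL18 fell by 2.23 log2 units (SE 0.271, n = 3 and 3), a 4.7-fold higher level in nuclei, and 105 of 11867 probe sets had a more negative difference. RALFL32 fell by 1.75 (SE 0.342), RALFL22 fell by 1.39 (SE 0.25) and RALFL24 fell by 1.32 (SE 0.254). By limma 4 of 4 passed an adjusted p of 0.05, against 6.77% of all probe sets and 4.05% in this direction, and for 4 of 4 the arrays of the groups did not overlap, against 28.6% of all and 15.2% in this direction. As above, nothing is read from those counts. Their median was -1.57, against 0.01 over all probe sets.

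**Figure D3:**
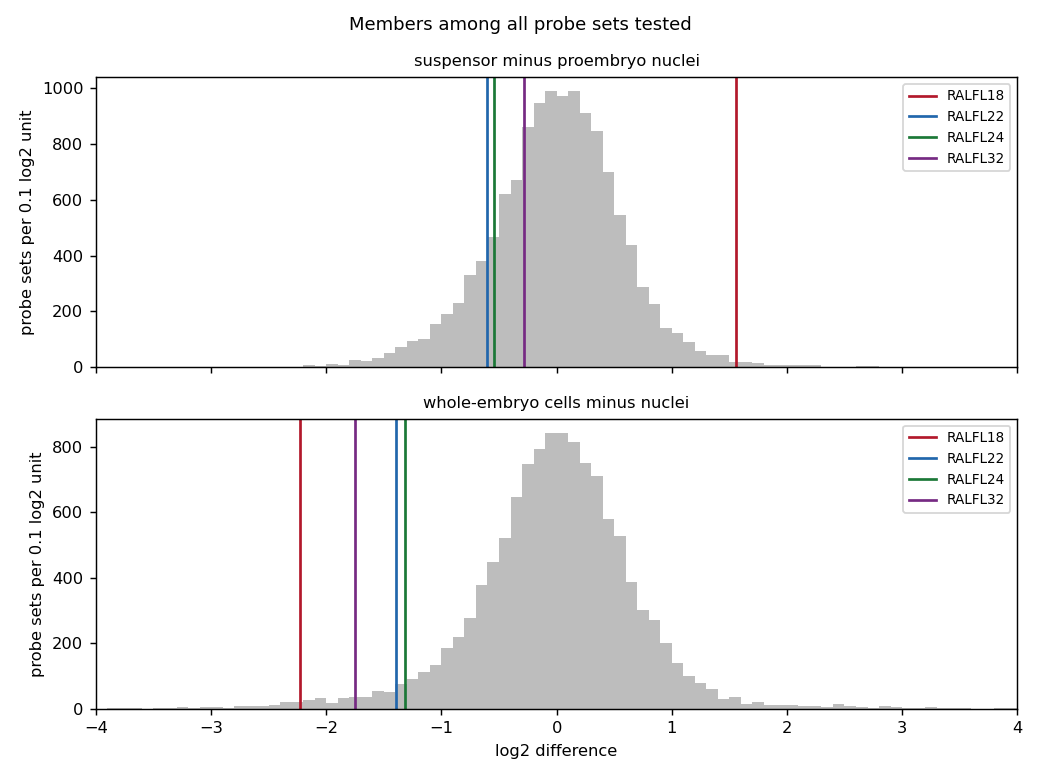
Number of probe sets per 0.1 log2 unit of difference (grey) in suspensor minus proembryo nuclei (12787 probe sets) and in whole-embryo cells minus nuclei (11867), with the 4 chosen genes as lines. In the upper panel RALFL18 lies at 1.56 and the others between -0.60 and -0.28, and in the lower panel all 4 lie between -2.23 and -1.32.

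Over the alternative settings the 4 differences kept their sign, while sizes and calls varied. Groups that do not overlap would keep the sign in any case where an array is left out. RALFL18 ranged from -2.44 to -2.05 over 12 alternative settings and passed in 11, RALFL22 from -1.51 to -1.24 with 10, RALFL24 from -1.43 to -1.19 with 8, and RALFL32 from -2.10 to -1.34 with 7. As above, settings without the filter or the trend are not among the 12. With the control level as a covariate 0 of the 4 passed, and 9 probe sets in all instead of 803. The hybridisation controls read 11.87 to 12.10 log2 units in cells and 12.08 to 13.23 in whole-embryo nuclei. The covariate thus ran largely together with the group, and their parts in the calls cannot be told apart. With that covariate the differences were -2.05 for RALFL18, -1.52 for RALFL32, -1.50 for RALFL22 and -1.19 for RALFL24. BAN stood at 0.57 (SE 0.404) in cells minus nuclei and AGL80, whose arrays did not overlap, at 0.29 (SE 0.248), and their part in the lower RALFL levels was not tested.

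The other 7 RALF genes with a probe set are what a choice made with values known left over, so their smaller medians are no independent comparison. Of them, 5 passed the filter on dim probe sets in each comparison. RALFL34, whose peptide is a known ligand of THE1, was bright in all groups, at a log2 level of 11.45 to 11.93 in proembryo, 10.82 to 11.43 in suspensor and 11.55 to 11.86 in whole-embryo nuclei. The suspensor arrays lay below those of the proembryo and of whole-embryo nuclei, and the difference from the proembryo was -0.60 (SE 0.234, limma adjusted p = 0.203). RALFL34 in cells, 10.93 to 11.90, overlapped whole-embryo nuclei (-0.33, SE 0.288, limma adjusted p = 0.525). RALFL31 leaned the other way between the lineages, with 9.43 to 9.90 in suspensor against 8.87 to 9.32 in proembryo nuclei (0.47, SE 0.255, adjusted p = 0.384).

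RALFL31 and RALFL33 stood lower in cells without passing the threshold. RALFL33, known from the stigma, where it acts through FER, read 8.43 to 9.26 in cells and 9.52 to 10.14 in whole-embryo nuclei (-0.87, SE 0.298, limma adjusted p = 0.102). RALFL31 read 8.27 to 8.62 and 8.86 to 9.37 (-0.68, SE 0.256, adjusted p = 0.136). The groups did not overlap for either gene, against 28.6% of all probe sets and 15.2% in this direction. RALFL28 and RALFL26 varied more within groups than between them: RALFL28 ran from 6.84 to 9.83 among the arrays of whole-embryo nuclei alone and RALFL26 from 6.52 to 9.83 among those of the proembryo. RALFL25 was above the array median on 1 proembryo array and 1 array of whole-embryo nuclei, and RALFL27 on 0 of 12, at a log2 level of at most 5.72.

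Of the 5 other RALF genes that could be tested, limma placed 0 past the threshold in each of the 4 comparisons. Of all probe sets, 2.03% passed in suspensor against proembryo nuclei and 1.56% in suspensor against whole-embryo nuclei. The share was 0% in proembryo against whole-embryo nuclei and 6.77% in cells against nuclei. At an unadjusted p under 0.05 there was 1 (RALFL34) in each comparison with the suspensor, 0 in proembryo against whole-embryo nuclei and 2 (RALFL31 and RALFL33) in cells against nuclei. The share of all probe sets at that unadjusted p was 16% in suspensor against proembryo nuclei and 23.9% in cells against nuclei. It was 14.3% in suspensor and 3.14% in proembryo against whole-embryo nuclei. The median difference of the 5 genes was -0.08 in suspensor against proembryo nuclei and -0.52 in cells against nuclei. The latter was of the same sign for 4 of the 5, with RALFL28 at 0.30 (SE 0.662).

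**Figure D4:**
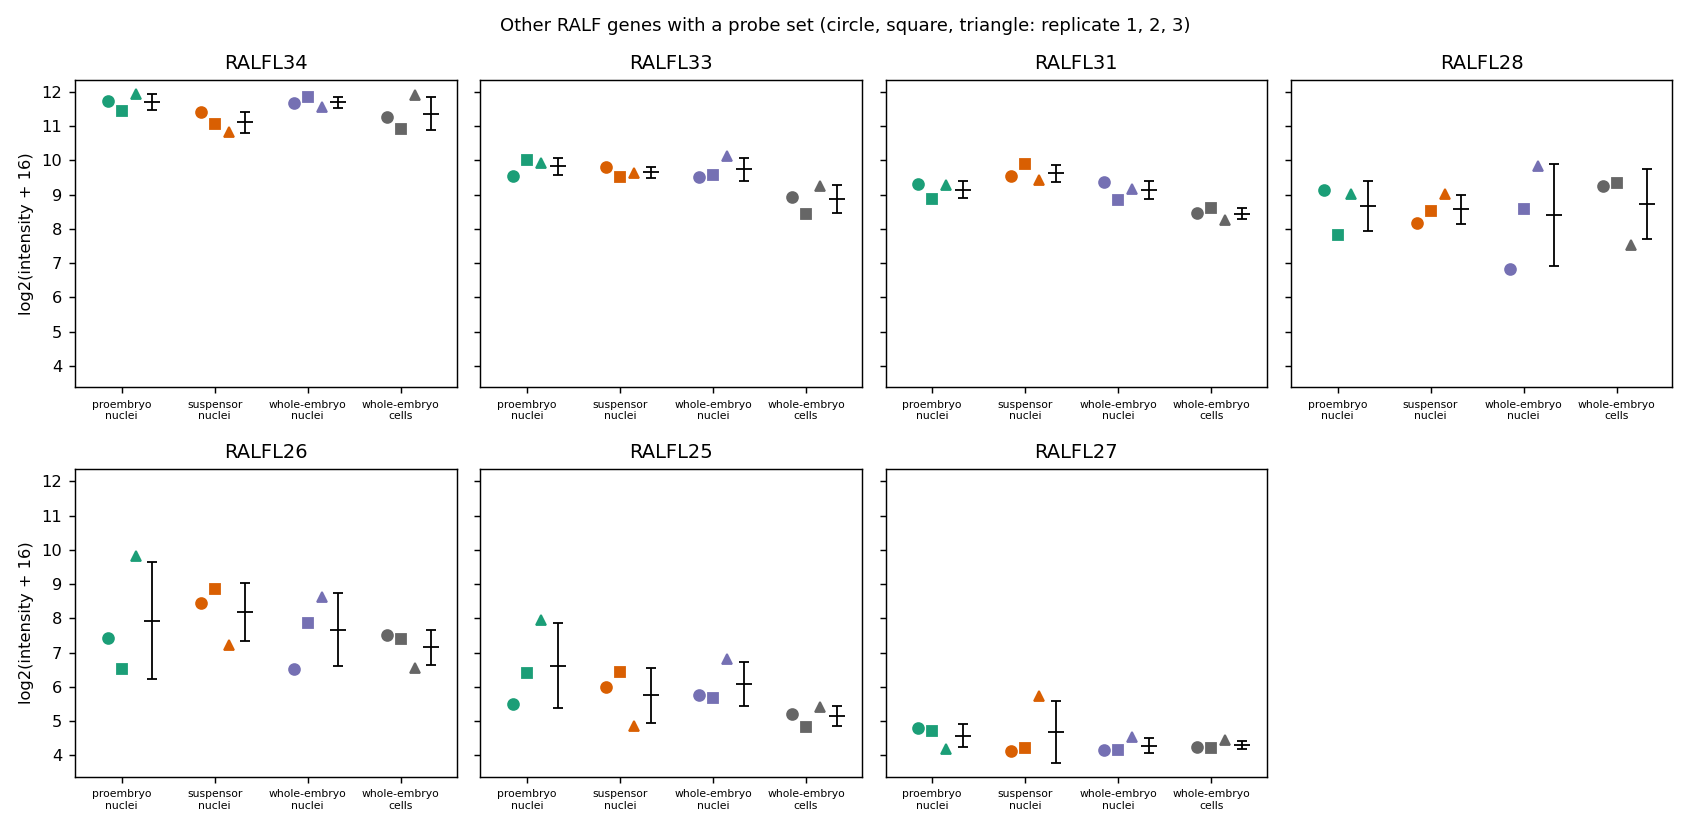
Log2(intensity + 16) of the 7 other RALF genes on each array (symbols) by group, with group mean and SD (black, n = 3). RALFL34 stays between 10.82 and 11.93 on all arrays, RALFL33 and RALFL31 are lowest in cells, and RALFL28 and RALFL26 spread widely within groups.

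**Figure D5:**
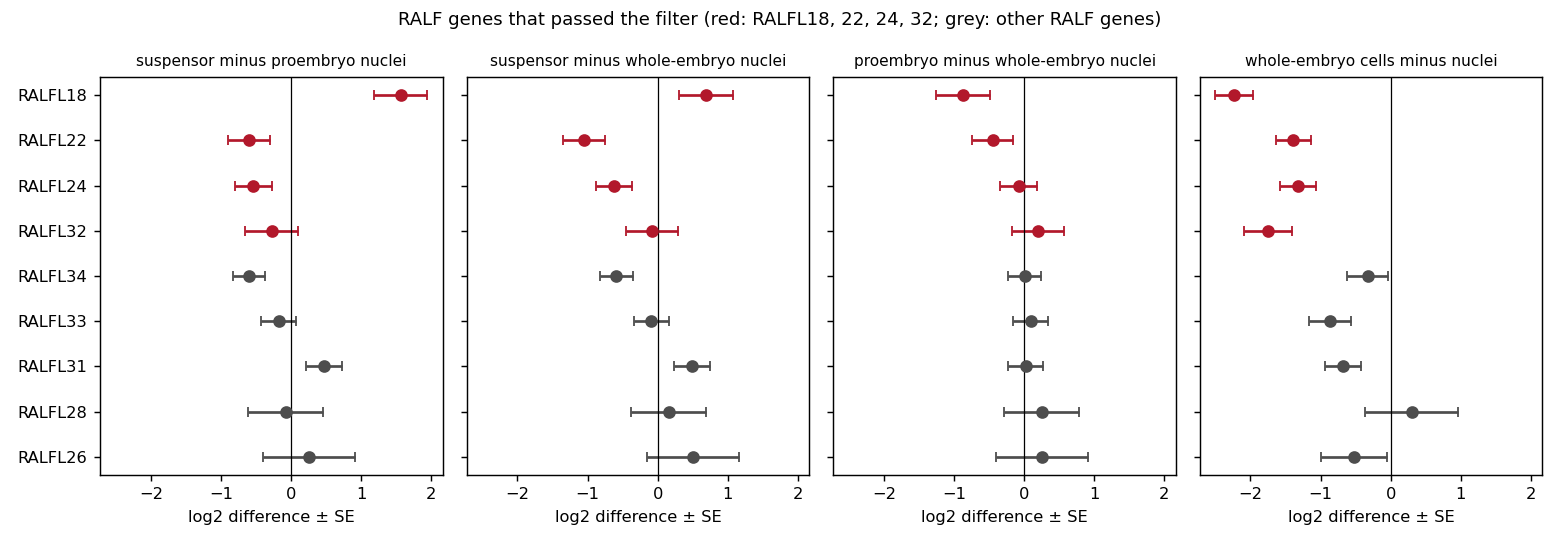
Log2 difference with its SE in the 4 comparisons for the 9 RALF genes that passed the filter, with the 4 chosen genes in red and the other 5 in grey. In cells minus nuclei the chosen genes lie between -2.23 and -1.32 and the others between -0.87 and 0.30.

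Receptors and other partners of RALF peptides were read from a list of 42 genes, of which 18 had a named probe set and 6 passed the filter among the nuclei. None of the 4 listed lipid-anchored co-receptors was measured. FER, the best known RALF receptor, lay below the array median on all 12 arrays, at 5.55 to 85.2 intensity units, and was not tested; a dim probe set does not show that a transcript is absent. ANX1 and ANX2, receptor kinases of the pollen tube, were also below the median on all 12. THE1 was above it on all 12, with a log2 level of 8.18 to 8.44 in proembryo, 8.38 to 9.38 in suspensor and 8.41 to 8.70 in whole-embryo nuclei. These ranges overlapped, and suspensor replicate 3 gave the highest value. THE1 read 7.19 to 8.13 in cells, below the nuclei (-0.93, SE 0.289, limma adjusted p = 0.0786).

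S1P, the precursor protease, was lower on all suspensor arrays, 7.24 to 7.55, than on the proembryo arrays, 7.75 to 8.20 (-0.61, SE 0.33, limma adjusted p = 0.382). In cells, at 7.04 to 7.76, it overlapped whole-embryo nuclei (-0.30, SE 0.352). Of the listed loci that have no symbol in the gene table, AT5G59700 stood at 0.70 (SE 0.433), AT1G49490 at -1.16 (SE 0.512) and AT3G24480 at 0.19 (SE 0.29) in suspensor minus proembryo nuclei. In cells minus nuclei AT3G24480 stood at -1.27 (SE 0.368, limma adjusted p = 0.0615) and AT1G49490 at -0.74 (SE 0.579). By limma 0 of the tested genes passed in any comparison, against 0% to 6.77% of all probe sets. At an unadjusted p under 0.05 there was 1 of 6 in suspensor against proembryo nuclei and 2 of 4 in cells against nuclei, where 16% and 23.9% of all probe sets lay, and 0 of 6 in the other comparisons. Their median differences were 0.24 in suspensor against proembryo nuclei and -0.84 in cells against nuclei, where all 4 were negative.

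Across all 12 arrays the chosen genes correlated positively with each other, with Pearson's r from 0.42 for RALFL18 with RALFL24 to 0.76 for RALFL22 with RALFL24. All share low values on the arrays of cells. Over the 9 nuclear arrays r was -0.72 for RALFL18 with RALFL24, 0.60 for RALFL22 with RALFL24, and between -0.25 and -0.03 for the other 4 pairs. These are descriptions over arrays that share their groups and scaling, with no test.

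The transcripts most like each gene were sought among 1040 other probe sets that lay above the array median in at least 3 arrays and whose gene has a symbol, by Pearson's r over the 12 arrays. For RALFL18 these were nad9, a mitochondrion-encoded subunit of respiratory complex I (r = 0.866), LCB2, of sphingolipid synthesis (0.855), and UBC29, a ubiquitin-conjugating enzyme (0.851). For RALFL22 they were SAMBA, a regulator of the anaphase-promoting complex (0.883), ATRX, a chromatin remodeller (0.849), and NDB4, an NAD(P)H dehydrogenase (0.835). For RALFL24 they were TKL (0.899), XTH16, a xyloglucan endotransglucosylase (0.872), and CLUB, a vesicle-tethering subunit (0.864). For RALFL32 they were CLE41, itself a secreted signalling peptide (0.884), GH3.9, of the auxin-conjugating family (0.884), and scpl41, a carboxypeptidase-like gene (0.872). Over the 9 nuclear arrays, a choice made after the data were seen, 1 of these 12 names, SAMBA for RALFL22, was again among the 3 most alike.

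Of the 8 protein-coding genes that flank the 4 members in the gene order of assembly TAIR10.1, 4 had a named probe set. AT4G14020, next to RALFL32, stood at -1.01 in cells minus nuclei (SE 0.34, limma adjusted p = 0.0997) without overlap between the groups. On the other side of RALFL32, AT4G14000 stood at -0.03 (SE 0.248). The neighbours of RALFL22, RAD9 and AT3G05500, stood at 0.21 (SE 0.442) and 0.23 (SE 0.305), where RALFL22 stood at -1.39. The neighbours of RALFL18 and RALFL24 have no named probe set here.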

How the data were processed

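Each array's deposited column holds 1 intensity per probe set, on a linear scale. MAS5 and affy 1.32.1 are named per the submitters' processing notes, which leave their use unstated here. Trimmed by 2% at each end, the mean was 200.02 on all 12 arrays, and no scaling was added. Probe sets were named from the platform annotation, and the TAIR10.1 gene table, through which symbols were updated, served only for names and gene order; 13513 of 22746 had 1 gene. Genes and lists were chosen with earlier results of these data known.

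Of log2(intensity + 16), differences were fitted in R 4.3.3 by the lmFit and trended eBayes functions of limma 3.58.1, the 9 nuclear arrays in 1 fit and the 6 whole-embryo arrays in another. A probe set was kept if above its array's median in at least 3 arrays of the fit, and p-values were adjusted by Benjamini-Hochberg over all kept, at a threshold of 0.05. The fit was tested on simulated data. From the lists, genes past the threshold were to be named, otherwise in each role the 2 with the smallest p in suspensor against proembryo nuclei and in cells against nuclei, and for likeness the 3 highest r; FER, ANX1, ANX2, the remaining RALF genes and the neighbours were named outside that rule, after their values were seen. Alternatives were a pseudocount of 1 or 64, no filter, no trend, median centring, all 12 arrays in 1 fit, the replicate block, the control level as a covariate and leaving out each array. Counts of settings given for the 4 chosen genes do not include those with no filter or no trend. The number of arrays limits the precision of every value. Plots used Python 3.11.15, pandas 2.3.3 and matplotlib 3.10.9.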

Additional observations from a re-analysis of the deposited data

How the results depend on the processing

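Under the settings that leave out no array, each of the 16 differences of the 4 genes moved by less than 1 SD between replicates. Leaving out 1 array in turn, suspensor minus proembryo nuclei ran from 1.23 to 2.21 for RALFL18, -0.83 to -0.32 for RALFL22, -0.73 to -0.38 for RALFL24 and -0.63 to 0.26 for RALFL32, whose sign turned without suspensor replicate 2. Suspensor minus whole-embryo nuclei ran from 0.61 to 0.79, -1.23 to -0.76, -0.75 to -0.52 and -0.43 to 0.46 for the same genes, proembryo minus whole-embryo nuclei from -1.52 to -0.54, -0.62 to -0.23, -0.24 to 0.12 (positive without proembryo replicate 2 for RALFL24) and 0.09 to 0.39, and cells minus nuclei from -2.44 to -2.10, -1.51 to -1.26, -1.43 to -1.19 and -2.10 to -1.50. The count of probe sets past the threshold, 260 in suspensor against proembryo nuclei, was 167 without the filter, 17 without the trend, 62 on median-centred arrays, 141 when all 12 arrays were fitted together, and 85 to 421 without 1 array. In suspensor against whole-embryo nuclei it was 199, then 104, 9, 49, 55 and 27 to 309. In proembryo against whole-embryo nuclei it was 0 and 0 to 1 without 1 array. In cells against nuclei it was 803, 462 without the filter, 9 when the control level was a covariate, and 205 to 1287 without 1 array. The cause was not tested. Same-numbered arrays did not deviate together (r of deviations -0.14 to 0.10), so the numbers are not taken as pairs; with the replicate block the counts were 285, 203, 0 and 774, and the RALFL18 difference in suspensor minus proembryo nuclei stayed at 1.56 (SE 0.358). In cells against nuclei AT3G24480 passed with a pseudocount of 64, with all 12 arrays and without cells replicate 1, THE1 passed without cells replicate 1 and RALFL33 without cells replicate 3.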

Other observations

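Some RALF and receptor-pathway genes had their highest value on proembryo replicate 3. Of 18 pathway genes with a probe set, 6 were highest on that array among the 12, as were 3 of 11 RALF genes, while 7.05% of all probe sets were highest there. On suspensor replicate 3 it was 4 of the 18 and 2 of the 11, with 20.2% of all probe sets. The genes highest on proembryo replicate 3 were ANX2, AT4G39110, AT2G21480, AT3G19020, AT1G49490 and AT4G33970, and RALFL25, RALFL26 and RALFL34. Of these, ANX2 and AT2G21480 lay below the median of that array. ANX2, AT4G39110, AT2G21480, AT3G19020 and RALFL25 did not pass the filter on dim probe sets in either fit. The share of 7.05% is over all probe sets, not over those of like intensity. RALFL34, at a log2 level of 11.93, was close to its 11.90 on cells replicate 3. RALFL26 read 897 intensity units on proembryo replicate 3 and 156 and 76 on the other proembryo arrays, and RALFL25 read 231 against 29.2 and 69.1. RALFL25 and RALFL26 are next to each other in the gene order, and their r over the 12 arrays was 0.69, and 0.43 without proembryo replicate 3. AT1G49490 had a log2 level of 8.70 on proembryo replicate 3 against 7.07 and 6.44 on the other proembryo arrays. None of the 4 chosen genes was highest there: RALFL18 was highest on suspensor replicate 2, RALFL22 on whole-embryo nuclei replicate 1, RALFL24 on proembryo replicate 1 and RALFL32 on suspensor replicate 3. The pattern was noticed after the values were seen and was not tested.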
